A study of Macaca mulatta with 2 samples.

Results

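The genes described here are 8 checkpoint and costimulatory receptors of T cells, PDCD1 (PD-1), CTLA4, ICOS, CD28, CD27, TIGIT, LAG3 and HAVCR2 (TIM-3), chosen by name. Of the 35432 genes in the deposited counts, 7 rows carry these symbols. No row carries CD27, which is not analysed here. The cells came from the blood of 1 untreated male rhesus monkey (Macaca mulatta), 6 years old, and were isolated as double positive (DP) T cells, which carry both CD4 and CD8. CD4+ cells were taken from fresh blood mononuclear cells with releasable magnetic beads, and CD8+ cells were then taken from among them with CD8 beads. A 5′ RNA library was made, and antibody tags against CD4 and CD8 were counted in a second library of the same 7923 cell barcodes. There is 1 animal and 1 group, so the comparisons below are between cells of that animal, with no replicate and no test.

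A T cell needs a signal through its antigen receptor and a second, costimulatory signal to become fully active. CD28 gives that second signal when it binds CD80 or CD86 on an antigen-presenting cell, and its relative ICOS does so when it binds ICOS ligand. CTLA4 binds CD80 and CD86 as well and holds the response back, while PD-1, TIGIT, LAG-3 and TIM-3 are inhibitory receptors of other families with ligands of their own. PD-1 appears on T cells after activation and stays high on chronically stimulated and on follicular helper T cells, and regulatory T cells carry CTLA4 and TIGIT.

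CD28, CTLA4 and ICOS form a gene cluster. In the RefSeq annotation of Mmul_10, the genome build of the files, they lie in this order on the plus strand of chromosome 12. CD28 (ENSMMUG00000057214) runs from 91104946 to 91138544, CTLA4 (ENSMMUG00000015903) from 91268255 to 91274677 and ICOS (ENSMMUG00000002648) from 91338310 to 91363482. The gap between CD28 and CTLA4 is 129710 bases and that between CTLA4 and ICOS is 63632 bases. PDCD1 (ENSMMUG00000063159) lies elsewhere on chromosome 12, from 129279134 to 129287069 on the minus strand, and TIGIT (ENSMMUG00000054667) on chromosome 2, from 161963065 to 161975814 on the minus strand. LAG3 (ENSMMUG00000056979) lies on chromosome 11 from 6936545 to 6943431 on the plus strand, 9999 bases before CD4. HAVCR2 (ENSMMUG00000048691) lies on chromosome 6 from 154493130 to 154516898 on the minus strand.

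The 3 clustered receptors are relatives, and exon 2 of each encodes the ligand-binding domain. The 60 bases below, from exon 2 of each gene on the plus strand of Mmul_10, hold in capitals the 6 codons of the loop that touches the ligand, with 3 proline codons in the middle. They are shown because CD28 and CTLA4 share their ligands through this loop and ICOS, which has another ligand, does not.
CD28, chr12:91125776-91125835: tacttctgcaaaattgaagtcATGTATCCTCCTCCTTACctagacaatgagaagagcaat
CTLA4, chr12:91271661-91271720: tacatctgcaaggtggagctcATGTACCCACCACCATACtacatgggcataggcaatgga
ICOS, chr12:91357796-91357855: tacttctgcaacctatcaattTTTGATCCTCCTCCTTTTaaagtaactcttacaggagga
Of the 18 bases in capitals, CD28 and CTLA4 share 14, CD28 and ICOS share 13, and CTLA4 and ICOS share 9. The stretches were found by searching for these 6 codons, with the same pattern for CD28 and CTLA4. Most of the shared bases were thus set by the search, and the counts are no measure of kinship.

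Filters of 200 to 4000 genes and at most 20% mitochondrial molecules left 7601 cells, and the 7311 of them with a molecule of CD3E (96.2%) are the cells described. Each captured RNA molecule carries a unique molecular identifier (UMI), so that a UMI count is a count of molecules. The CD3E+ cells held 30113654 UMIs, with a median of 3656 per cell and quartiles of 3001 and 4720. As for the label of the sort, all 6 T cell markers looked for were present, with a summed level of 3421 counts per 1000000 UMIs (CPM). The cells were chosen by CD3E, a T cell gene at 1404 CPM in them, so this level cannot test the label. Only 3592 cells (49.1%) lay above the background of both the CD4 and the CD8 tag, while 3270 lay above that of CD4 alone. The limits, 191 UMIs for CD4 and 330.5 for CD8, are 90th percentiles of the B gene cells described below. That of CD8 lies close to the median CD8 tag, which was 342 in the 7301 cells without HAVCR2. The tags thus do not mark all CD3E+ cells as double positive, and cells under the CD8 limit are not read as lacking CD8. Markers of other cell types summed to 75.8 CPM over 6 B cell genes, 10.6 CPM over 6 monocyte genes with VCAN at 0, 251 CPM over 5 natural killer genes with NCAM1 at 5 UMIs, and 243 CPM over 4 red blood cell genes, found in 884 cells. A set of 86 kept cells with B cell genes and no CD3 genes, with a median of 4137.5 UMIs, serves as the background for every receptor. Intervals in parentheses are exact 95% intervals and cover counting error only. A receptor was read as above background only where its interval lay above that of the B gene cells. An overlap leaves this undecided and does not show that the levels are equal. Ratios to the B gene cells were not used for this.

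CD28, the main costimulatory receptor of resting T cells, had 1598 UMIs in 1287 CD3E+ cells, a level of 53.1 CPM (50.5 to 55.7). ICOS, its inducible relative, had 843 UMIs in 723 cells and 28 CPM (26.1 to 29.9). Most of these cells carried a single molecule, 1035 of the CD28+ and 623 of the ICOS+ cells. Both were close to absent in the background cells, where CD28 had 1 UMI and ICOS had none, which allows up to 7.56 CPM.

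PDCD1 had 3899 UMIs in 2335 cells, a level of 129.5 CPM (125.4 to 133.6), and up to 8 UMIs in a cell. CTLA4 had 634 UMIs in 500 cells and 21.1 CPM (19.4 to 22.8), and LAG3, which binds MHC class II as CD4 does, had 463 UMIs in 373 cells and 15.4 CPM (14.0 to 16.8). PDCD1 and CTLA4 exceeded their background, which was 7 UMIs or 17.6 CPM (7.09 to 36.3) for PDCD1 and none for CTLA4. That of LAG3 was 1 UMI or 2.52 CPM (0.0638 to 14.0). The end of this interval meets the start of that of the CD3E+ cells, so LAG3 is not read as above its background over all cells. The levels were still 15.4 and 2.52 CPM, and the overlap does not show that they are equal. TIGIT, a receptor for CD155 and related nectins, had 2062 UMIs in 1453 cells and 68.5 CPM (65.5 to 71.5).

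The TIGIT level of all CD3E+ cells did not stand above that of the B gene cells, its background here. These 86 cells held 29 TIGIT UMIs in 14 cells, which is 73.1 CPM (48.9 to 104.9). Of the 14, 9 held 1 UMI and 2 held 2, and the highest counts were 4, 5 and 7 in 1 cell each. The other receptors did not keep that proportion, since the same B gene cells held 7 PDCD1 UMIs while CD3E+ cells held more PDCD1 than TIGIT UMIs. Whether the TIGIT UMIs of the B gene cells are expression or free RNA was not tested. A level within this background is thus not read as absence of TIGIT. A TIGIT level or share is read below as above background only where its interval lies above that of the B gene cells. HAVCR2 was at the edge of detection, with 10 UMIs in 10 cells, or 0.332 CPM. None of its UMIs fell in a FOXP3+ or CXCL13+ cell, and 6 of the 10 fell in cells without any of the 7 gate genes, so its pattern is not described further.

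Shares of cells depend on depth, and so each cell was also redrawn at random to 2000 UMIs, which leaves out 376 shallower CD3E+ cells and keeps 6935. At that depth, PDCD1 was found in 21.2% of CD3E+ cells (20.2 to 22.2) and in 1.27% of B gene cells (0.0320 to 6.85). CD28 was found in 8.78%, ICOS in 4.35%, CTLA4 in 3.94% and LAG3 in 2.68%, each against 0 of 79 B gene cells. A count of 0 there allows up to 3.8% if taken as 3 counts, and its exact interval reaches 4.56%. TIGIT was found in 11.7% (10.9 to 12.4), within the interval of its background of 8.86% (3.64 to 17.4). The thinned shares of LAG3, ICOS and CTLA4 lie below this exact limit, and that of LAG3 also below 3.8%. The comparisons of their levels between gates therefore rest on CPM. Pairs of receptors in the same cells are compared by thinned shares, and this limit applies there to these 3.

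The cells were then divided by 7 gate genes, and a cell was called positive with at least 1 UMI. CCR7 guides naive and central memory T cells to lymph nodes, FOXP3 is the master factor of regulatory T cells, and CXCL13 is the chemokine of follicular helper cells. EOMES is a factor of cytotoxic and type 1 regulatory cells, CX3CR1 a receptor of cytotoxic effector cells, CCR9 a gut homing receptor and CCR6 a receptor of Th17 cells. The gates held 2163 CCR7+, 162 FOXP3+, 73 CXCL13+, 356 EOMES+, 1269 CX3CR1+, 479 CCR9+ and 557 CCR6+ cells. They overlap, with 850 cells in more than 1 gate, and 71.0% of FOXP3+ and 57.5% of CXCL13+ cells were also CCR7+. Their depths differed too, with a median of 4798 UMIs in CCR9+ and 3172 in CXCL13+ cells. A difference was called where the ratio of CPM + 10 was at least 2-fold, and the share of all 10018 genes with at least 50 UMIs that passed is the background of each call. The sum of 10 CPM draws the ratios of low genes towards 1, while the log2 ratios printed are of the CPM themselves unless said otherwise.

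**Figure D1:**
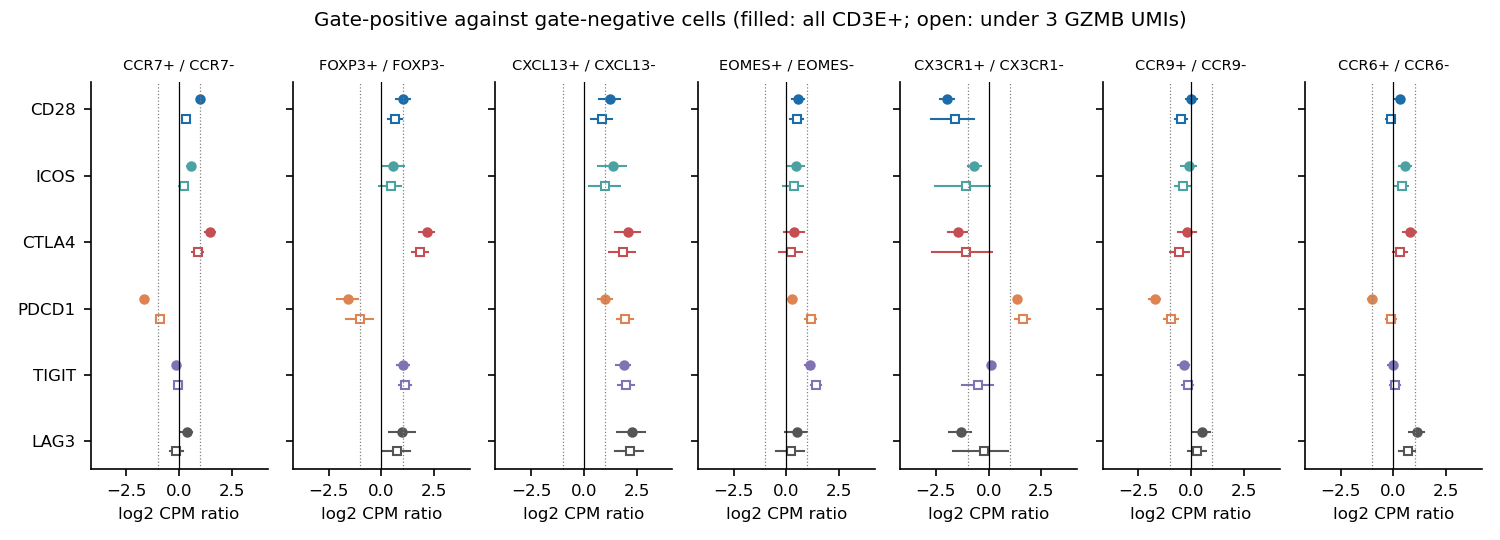
Log2 ratio of summed CPM between gate-positive and gate-negative CD3E+ cells for the 6 receptors with at least 50 UMIs, 1 panel per gate gene. Filled circles are all CD3E+ cells, open squares are cells with fewer than 3 GZMB UMIs, lines are exact 95% counting intervals, and dotted lines mark 2-fold. PDCD1 lies left of 0 in the CCR7, FOXP3, CCR9 and CCR6 gates and right of it in the CX3CR1, CXCL13 and EOMES gates, and all 6 receptors lie right of 0 in the CXCL13 gate.

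CX3CR1+ cells were high in PDCD1 and low in CD28. PDCD1 was at 258 CPM (244 to 272) in CX3CR1+ and 103 CPM in CX3CR1- cells, a log2 ratio of 1.32 (1.23 to 1.42). After thinning, 38.1% of CX3CR1+ cells had a PDCD1 UMI against 17.6% of the rest, at median depths of 3422 UMIs in the gate and 4137.5 in the B gene cells. CD28 was at 15.6 CPM (12.4 to 19.4) against 60.7 CPM, a log2 ratio of -1.96 (-2.30 to -1.64). These are the 2 of 6 receptors past 2-fold in this gate, where 1.63% of all genes passed in either direction. CTLA4 and LAG3 were lower as well, with log2 ratios of -1.46 (-1.94 to -1.02) and -1.33, but with 44 and 35 UMIs they did not pass on the scale of CPM + 10. The levels of CD28 and LAG3 in CX3CR1+ cells, 15.6 and 6.83 CPM, overlap the intervals of the 1 UMI that each had in the B gene cells. CTLA4, at 8.58 CPM, lies under the 9.29 CPM to which the exact interval of a count of 0 in these cells reaches. None of these receptors is read as above background in this gate. TIGIT differed little, at 73.2 against 67.5 CPM, and its log2 ratio of 0.12 had an interval of -0.05 to 0.28. The natural killer genes summed to 457 CPM in CX3CR1+ cells and to 85.6 CPM in CCR7+ cells, and the red blood cell genes to 125 and 7.88 CPM. Their part in the receptor levels was not tested.

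CCR7+ cells showed the opposite pattern. PDCD1 was at 53.2 CPM (48.9 to 57.8) in CCR7+ and 171 CPM (165 to 177) in CCR7- cells, a log2 ratio of -1.69 (-1.82 to -1.56). CD28 was at 78.2 CPM (73.0 to 83.7) against 39.3 CPM, a log2 ratio of 0.99 (0.85 to 1.14). CTLA4 was also higher, at 35.9 CPM (32.4 to 39.6) against 12.9 CPM, and its log2 ratio of 1.47 (1.24 to 1.71) fell just short of 2-fold on the scale of CPM + 10. PDCD1 was thus the only receptor of 6 past 2-fold, and 1.58% of all genes passed. ICOS stood at 35.6 against 23.8 CPM and LAG3 at 17.9 against 14.0 CPM, whereas TIGIT was at 64.7 against 70.6 CPM, both within its background. The CTLA4 difference remained among cells without FOXP3, with 32.5 CPM in FOXP3-CCR7+ and 12.4 CPM in FOXP3-CCR7- cells, a log2 ratio of 1.39 (1.15 to 1.64). B cell genes were at 132 CPM in CCR7+ cells and 75.8 CPM in all CD3E+ cells, and their part was not tested. Without the 144 CD3E+ cells that held 2 or more B cell UMIs, CTLA4 passed as well.

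FOXP3+ cells were high in CTLA4 and low in PDCD1. CTLA4 was at 85.7 CPM (66.7 to 108.5) in FOXP3+ and 19.3 CPM in FOXP3- cells, a log2 ratio of 2.15 (1.77 to 2.52), and 14.2% of thinned FOXP3+ cells had a CTLA4 UMI (9.22 to 20.5). PDCD1 was at 43.5 CPM (30.3 to 60.5) against 132 CPM, a log2 ratio of -1.60 (-2.12 to -1.12). These 2 of 6 receptors passed, as did 2% of all genes. The interval of PDCD1 in FOXP3+ cells overlaps that of the B gene cells, so PDCD1 is not read as above background in this gate. CD28 was higher in FOXP3+ cells without passing, at 104 against 51.7 CPM. TIGIT was at 135 CPM (111 to 163), a log2 ratio of 1.02 (0.73 to 1.30), with 16 of its 109 UMIs in 1 cell. With all cells kept, its interval lies above that of the B gene cells. Without that cell it was at 117 CPM (94.3 to 143), which overlaps the B gene cells. These kept their own highest cell, with 7 TIGIT UMIs, so that comparison left out a cell on 1 side only. The thinned share of 14.2% (9.22 to 20.5) overlaps its background with all cells kept. TIGIT is therefore not read as above background here. ICOS was at 41.0 against 27.6 CPM, and without the cell with 6 of its 33 UMIs that difference was within counting error. LAG3 rested on 24 UMIs in 10 cells. When both the gate and the levels were taken from cells thinned to 2000 UMIs, its log2 ratio of CPM + 10 went from 0.67 to -1.32, so no direction is read for LAG3 here. Within the gate, ICOS was at 27.1 CPM in the 115 FOXP3+CCR7+ cells and 78.9 CPM in the 47 FOXP3+CCR7- cells, a log2 ratio of -1.54 (-2.62 to -0.46) on 16 and 17 UMIs. Without the 1 cell that held 6 of the 17, it was -1.01 with an interval of -2.21 to 0.24, and the thinned shares of 3.48% (0.956 to 8.67) and 8.51% (2.37 to 20.4) overlap, so no difference is read. CTLA4 was at 93.3 and 64.9 CPM in these cells, and that difference does not exceed counting error.

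CXCL13+ cells were higher in each of the 6 receptors with at least 50 UMIs. LAG3 was at 71.0 CPM (44.5 to 107) in CXCL13+ and 14.8 CPM in CXCL13- cells, a log2 ratio of 2.26 (1.57 to 2.88). CTLA4 was at 87.2 CPM (57.5 to 127) against 20.4 CPM, and TIGIT at 245 CPM (193 to 307) against 66.6 CPM, with log2 ratios of 2.10 and 1.88. ICOS, which follicular helper cells are known to carry, was at 71.0 CPM (44.5 to 107) against 27.5 CPM, and CD28 at 123 CPM (86.8 to 168) against 52.3 CPM. These 5 of 6 passed 2-fold as higher, with 1.8% of all genes passing as higher and 3.94% in either direction. PDCD1 was at 258 CPM (205 to 321) against 128 CPM, and its log2 ratio of 1.01 (0.67 to 1.33) was 0.96 on the scale of CPM + 10. The gate is small, with 22 UMIs each of LAG3 and ICOS, and 1 cell held 15 of its 76 TIGIT UMIs, without which TIGIT was at 207 CPM (158 to 266). In cells above both tag limits LAG3 and CD28 did not pass, at 0.92 and 0.93 on the log2 scale of CPM + 10, while PDCD1 did, at 1.04. On that scale ICOS did not pass without the highest doublet scores, at 0.94. Nor did it in cells with CXCL13 as their only gate gene against those with none of the 7, at 0.41 on 2 UMIs. CD28 did not pass with at least 2 CXCL13 UMIs, at 0.72. Over these 6 receptors the median log2 ratio of CPM + 10 was 1.39, against -0.00 over all genes tested.

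The CXCL13+ cells with CCR7 did not have the low PDCD1 of the other CCR7+ cells. PDCD1 was at 281 CPM (212 to 366) in the 42 CXCL13+CCR7+ cells and 49.0 CPM (44.8 to 53.4) in the 2121 CXCL13-CCR7+ cells. In the 31 CXCL13+CCR7- cells it was at 219 CPM, and the log2 ratio between the CXCL13+ groups, 0.36, had an interval of -0.35 to 1.10. TIGIT was at 296 CPM with CCR7 and 158 CPM without it, a log2 ratio of 0.91 (0.12 to 1.76), but without the cell with 15 UMIs it was 0.59 with an interval of -0.24 to 1.47, within counting error. LAG3 and CTLA4 differed by less than counting error between these groups, at 76.6 and 61.4 CPM for LAG3 and 86.8 and 87.8 CPM for CTLA4.

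EOMES+ cells stood out by TIGIT. TIGIT was at 139 CPM (121 to 159) in EOMES+ and 64.6 CPM in EOMES- cells, a log2 ratio of 1.11 (0.90 to 1.31), and was found in 24.5% of thinned EOMES+ cells (20 to 29.4), above the interval of the B gene cells. It was the only receptor of 6 past 2-fold, at 1.0 on the scale of CPM + 10, where 0.589% of all genes passed. The call ended without the 1 cell with 7 TIGIT UMIs (0.96), in cells above both tag limits (0.68), without the cell filters (0.96) and under 3 other settings. B cell genes were at 148 CPM in EOMES+ cells, and without the cells with 2 or more B cell UMIs the ratio was 1.06. By CPM the level was higher in EOMES+ cells without CX3CR1, with 151 CPM (131 to 174) in those 317 cells. It was 69.9 CPM on 16 UMIs in the 39 EOMES+CX3CR1+ cells, a log2 ratio of -1.11 (-1.95 to -0.38) between the latter and the former. The thinned shares of 25.3% (20.5 to 30.6) and 17.9% (7.54 to 33.5) overlap, at median depths of 3591 and 5485 UMIs, so the difference rests on CPM alone. PDCD1 was at 153 against 128 CPM and CD28 at 76.4 against 51.8 CPM, both under 2-fold. CCR7 made no difference to TIGIT beyond counting error within the gate, but EOMES+CCR7+ cells had less PDCD1 than EOMES+CCR7- cells, with a log2 ratio of -0.68 (-1.09 to -0.28), and more CD28, with a log2 ratio of 0.81 (0.27 to 1.36).

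CCR9+ and CCR6+ cells were both low in PDCD1. B cell genes were at 152 and 165 CPM in them, above the 75.8 CPM of all CD3E+ cells, and without the cells with 2 or more B cell UMIs the PDCD1 log2 ratios of CPM + 10 were -1.54 and -0.94, against -1.52 and -0.91 with them. PDCD1 was at 41.7 CPM (34.3 to 50.3) in CCR9+ and 138 CPM in CCR9- cells, a log2 ratio of -1.73 (-2.01 to -1.45), and it was the only receptor of 6 past 2-fold, against 1.12% of all genes. The ratio was -1.73 as well among cells without CCR7. The interval of PDCD1 in CCR9+ cells overlaps that of the B gene cells, so PDCD1 is not read as above background in the CCR9 gate. In CCR6+ cells PDCD1 was at 67.9 CPM (59.1 to 77.6) against 137 CPM, a log2 ratio of -1.01, and LAG3 was at 29.5 CPM (23.8 to 36.1) against 13.7 CPM, a log2 ratio of 1.10 (0.76 to 1.44). None of the 6 receptors passed on the scale of CPM + 10 in the CCR6 gate, where 0.789% of all genes did. Among cells without CCR7 the CCR6 gate was sharper, with log2 ratios of 1.36 (0.90 to 1.80) for LAG3, 1.25 (0.76 to 1.71) for CTLA4 and 1.02 (0.65 to 1.38) for ICOS, and -1.37 (-1.64 to -1.10) for PDCD1. Here the CCR6+ cells had a median of 4706 UMIs and the CCR6- cells 3392.

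**Figure D2:**
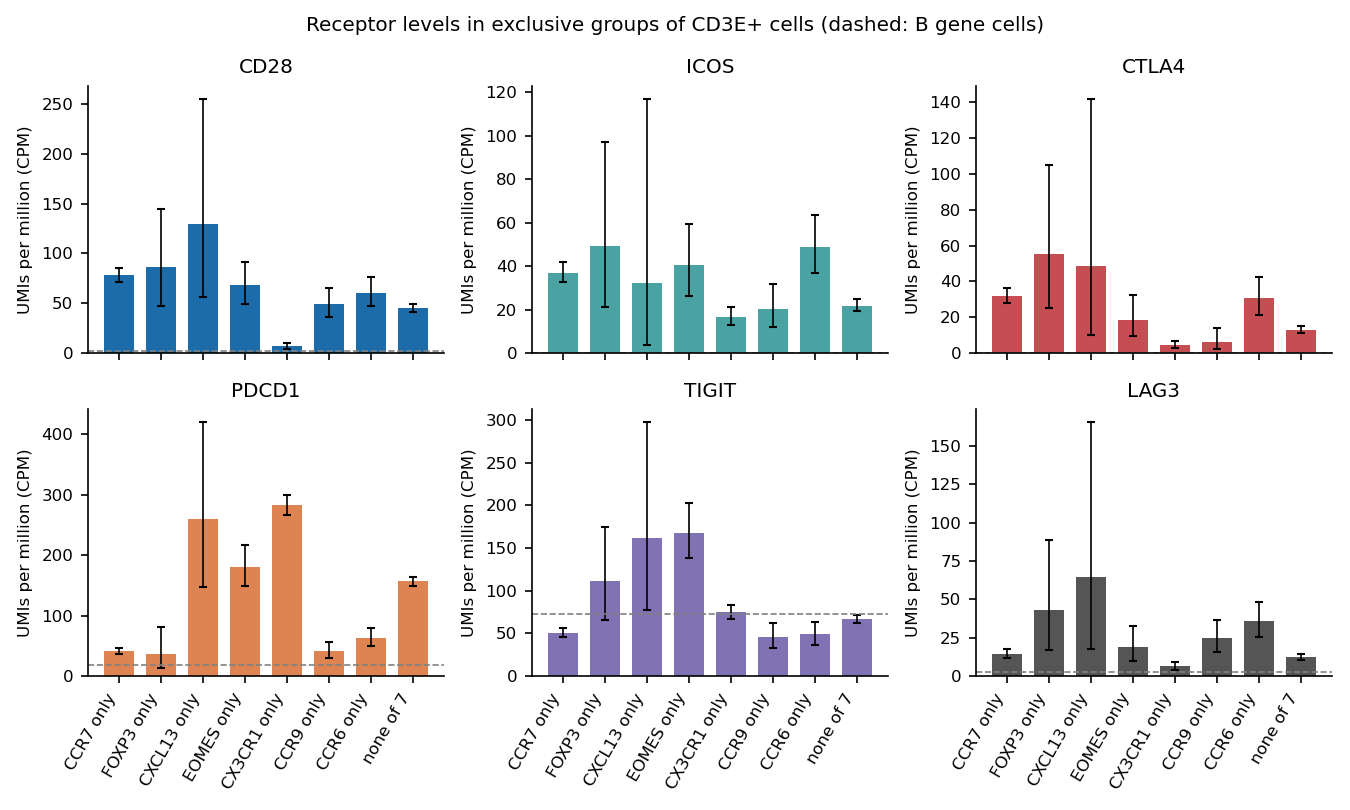
Level of 6 receptors in CPM in 8 exclusive groups of CD3E+ cells, those with UMIs of only 1 gate gene and those with none of the 7. Error bars are exact 95% Poisson intervals, and the dashed line is the level in the 86 B gene cells. CD28 is at 6.77 CPM in CX3CR1 only cells and between 44.8 and 130 CPM elsewhere. For TIGIT only the interval of EOMES only cells, 138 to 203 CPM, lies above that of its B gene cells, 48.9 to 104.9 CPM.

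To remove the overlap of gates, cells with only 1 gate gene and those with none of the 7 were ordered by level. For PDCD1 the order was CX3CR1 only at 283 CPM, CXCL13 only at 259, EOMES only at 180 and none of the 7 at 157 CPM, with no neighbours apart beyond counting error. A step of 1.32 in log2 (0.98 to 1.68) followed to CCR6 only at 62.8 CPM, and a smaller one of 0.59 (0.01 to 1.2) to CCR9 only at 41.6, CCR7 only at 41.2 and FOXP3 only at 36.9 CPM, which did not differ. CD28 had a single step beyond counting error, of 2.73 (2.18 to 3.33), between none of the 7 at 44.8 CPM and CX3CR1 only at 6.77 CPM. The CX3CR1 only levels of CD28, and of LAG3 below, lie within the intervals of their background. That of CTLA4 below lies under what its count of 0 in the B gene cells allows. The PDCD1 intervals of CCR9 only and FOXP3 only cells overlap that of its background. Above the CD28 step the order ran from CXCL13 only at 130 and FOXP3 only at 86.1 CPM through CCR7, EOMES, CCR6 and CCR9 only. For LAG3 the single such step, of 0.99 (0.38 to 1.65), lay between none of the 7 at 12.5 CPM and CX3CR1 only at 6.29 CPM, and for TIGIT it was one of 0.38 (0.20 to 0.57) between none of the 7 at 66.4 and CCR7 only at 51.0 CPM. The neighbours in the orders of CTLA4, from FOXP3 only at 55.4 to CX3CR1 only at 4.35 CPM, and of ICOS, from FOXP3 only at 49.2 to CX3CR1 only at 16.7 CPM, did not differ beyond counting error at any step. The groups of 39 FOXP3 only and 19 CXCL13 only cells have few UMIs. Only neighbours were compared, and some groups further apart had separate intervals. For PDCD1 these were 266.8 to 299.5 CPM in CX3CR1 only and 149.7 to 164.3 CPM in none of the 7. CD28 had 71.7 to 85.3 CPM in CCR7 only and 41.1 to 48.9 CPM in none of the 7. CTLA4 had 27.6 to 36.4 CPM in CCR7 only and 2.58 to 6.88 CPM in CX3CR1 only. In the same groups ICOS had 32.6 to 41.9 and 12.99 to 21.1 CPM. TIGIT had 138 to 203 CPM in EOMES only and 66.4 to 83.3 CPM in CX3CR1 only.

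The cells with none of the 7 gate genes were mixed. Red blood cell genes summed to 569 CPM in them, against 4.65 CPM in CCR7 only cells, and their part was not tested. GZMB, the gene of the cytotoxic protease granzyme B, had at least 3 UMIs in 44.3% of these 3211 cells, in 92.0% of CX3CR1 only cells and in 4.6% of CCR7 only cells, against 2.33% of B gene cells. GZMB and this limit were chosen after the values were seen. Divided by it, the 1424 cells with GZMB had 265 CPM of PDCD1 (251 to 280) and the 1787 without it 79.6 CPM (73.0 to 86.6), a log2 ratio of 1.74 (1.59 to 1.88). CD28 was at 12.9 against 67.6 CPM, a log2 ratio of -2.39 (-2.80 to -2.0), and CTLA4, LAG3 and ICOS were lower with GZMB too, with log2 ratios of -1.90, -1.38 and -1.13. With GZMB, the levels of CD28, CTLA4 and LAG3 are not read as above their background in the B gene cells. TIGIT was at 73.7 against 61.2 CPM, both within its background. Cells with GZMB and no detected CX3CR1 thus had PDCD1 and CD28 levels close to those of CX3CR1+ cells.

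Since GZMB moved with several gates, each comparison was repeated among the 4541 CD3E+ cells with fewer than 3 GZMB UMIs. The low PDCD1 of the CCR7, FOXP3 and CCR9 gates became smaller, with log2 ratios of -0.93 (-1.10 to -0.75), -1.01 and -0.94, and in the CCR6 gate it went to -0.11 (-0.36 to 0.13). No receptor passed 2-fold in the CCR7, CCR9 or CCR6 gates, where 0.399%, 0.389% and 0.359% of all genes passed. In the CCR7 gate the log2 ratio of CD28 was 0.34 (0.19 to 0.49) and that of CTLA4 0.88 (0.63 to 1.14). ICOS and LAG3 were there at 0.21 (-0.01 to 0.44) and -0.12 (-0.43 to 0.18), within counting error. In the CCR6 gate LAG3 was at 0.67 (0.28 to 1.04), CTLA4 at 0.32 (-0.01 to 0.65) and ICOS at 0.38 (0.08 to 0.68). In the FOXP3 gate CTLA4 and TIGIT passed, with log2 ratios of 1.85 and 1.12 and 1.57% of all genes. TIGIT was at 1.01 on the scale of CPM + 10, on 98 UMIs. This was not repeated without the cell with 16 TIGIT UMIs, and TIGIT is again not read as above background. PDCD1 was at 184 CPM in 106 CX3CR1+ and 59.4 CPM in 4435 CX3CR1- cells with few GZMB UMIs, a log2 ratio of 1.63 (1.25 to 1.98). Within the gate the level was higher with GZMB, at 264 against 184 CPM, a log2 ratio of 0.52 (0.17 to 0.90). CD28 was lower in this gate, at 24.3 CPM (11.1 to 46.1) on 9 UMIs in CX3CR1+ and 74.4 CPM in CX3CR1- cells with few GZMB UMIs. The first interval overlaps that of its background. PDCD1 and CD28 were the 2 receptors that passed, against 3.17% of all genes.

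In the CXCL13 and EOMES gates the PDCD1 ratio was higher among cells with few GZMB UMIs, since PDCD1 was lower in the gate-negative cells there than in all gate-negative cells. PDCD1 was at 229 CPM in 65 CXCL13+ and 59.4 CPM in 4476 CXCL13- cells, a log2 ratio of 1.95 (1.55 to 2.32), and LAG3, TIGIT and CTLA4 passed with it, 4 receptors against 4.41% of all genes. In the EOMES gate PDCD1 was at 129 against 58.2 CPM, a log2 ratio of 1.15 (0.87 to 1.42), and TIGIT at 157 against 59.1 CPM, a log2 ratio of 1.41 (1.16 to 1.66). These were 2 receptors, against 1.04% of all genes.

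**Figure D3:**
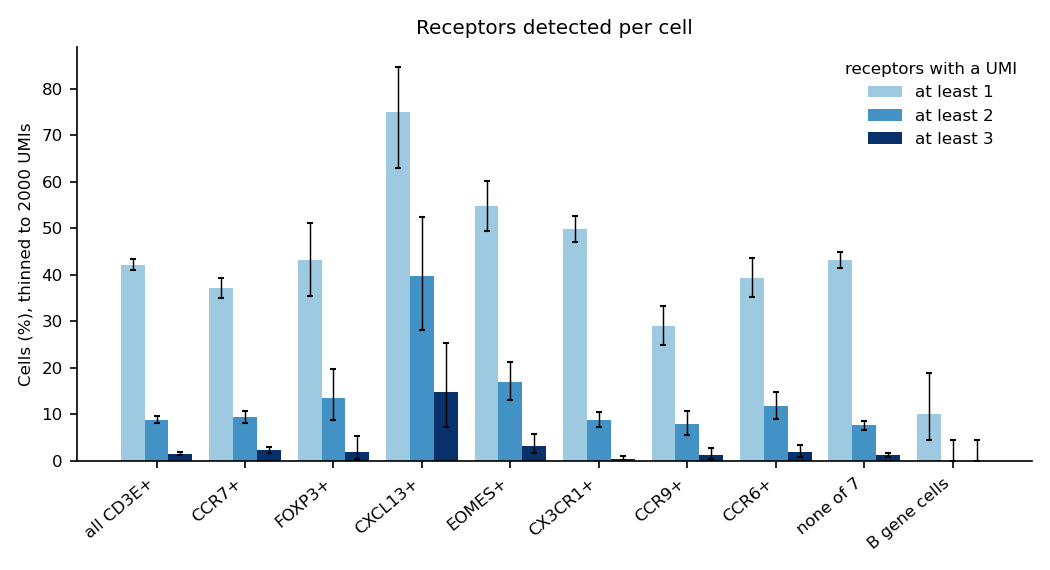
Share of cells, thinned to 2000 UMIs, with UMIs of at least 1, 2 or 3 of the 7 receptors, in CD3E+ cells by gate and in B gene cells. Error bars are exact 95% binomial intervals. CXCL13+ cells lead at 39.7% with at least 2 receptors, and no B gene cell of 79 had 2.

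A receptor was seen in most cells and several at once in a minority. Without thinning, 61.6% of CD3E+ cells (60.5 to 62.7) had a UMI of at least 1 receptor and 21.8% (20.8 to 22.8) of at least 2, and 1 cell had 6. At 2000 UMIs per cell these shares were 42.1% (41.0 to 43.3) and 8.85% (8.20 to 9.55), against 10.1% and 0 of the 79 B gene cells. PDCD1 alone was the commonest combination, in 1085 cells (15.6%), followed by TIGIT alone in 437, CD28 alone in 404 and PDCD1 with TIGIT in 189 cells (2.73%). At least 2 receptors were found in 39.7% of CXCL13+ cells (28 to 52.3), 16.9% of EOMES+ cells (13.1 to 21.3) and 13.6% of FOXP3+ cells (8.71 to 19.8). In CX3CR1+ cells the share was 8.76%, close to that of all cells, although 49.8% of them had at least 1 receptor.

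For each pair, the share of thinned cells with the first receptor was compared between cells with and without the second. The first is the one named earlier in the opening list, and the ratio can differ in the other direction, which was not counted. Of the 15 pairs without HAVCR2, 7 had a share at least 1.5 times as high in cells with the second receptor, against 3.02% of all pairs of the 4922 genes found in as many cells as these receptors. The 6 pairs with HAVCR2 added 2, which rest on 1 cell for CTLA4 and on 2 cells for TIGIT. In this direction PDCD1 with TIGIT, at 1.47, and CD28 with LAG3, at 1.49, lay just under the limit, so the count depends on the direction taken. Each of the 7 holds LAG3, ICOS or CTLA4, whose thinned shares over all cells lie below the exact upper limit of the B gene cells. CTLA4 was in 4 of the 7. It was found in 9.68% of LAG3+ cells (5.84 to 14.9) against 3.78% of LAG3- cells, in 9.27% of ICOS+ (6.25 to 13.1) against 3.69%, in 8.37% of CD28+ (6.30 to 10.9) against 3.51% and in 6.31% of TIGIT+ (4.74 to 8.22) against 3.62%. TIGIT was found in 23.7% of LAG3+ cells (17.7 to 30.4) and 11.3% of LAG3- cells. ICOS, which shares a ligand family with CD28, was found in 6.73% of CD28+ cells (4.87 to 9.02) and 4.13% of CD28- cells. The pair of ICOS and LAG3 was at 1.5 with overlapping intervals.

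**Figure D4:**
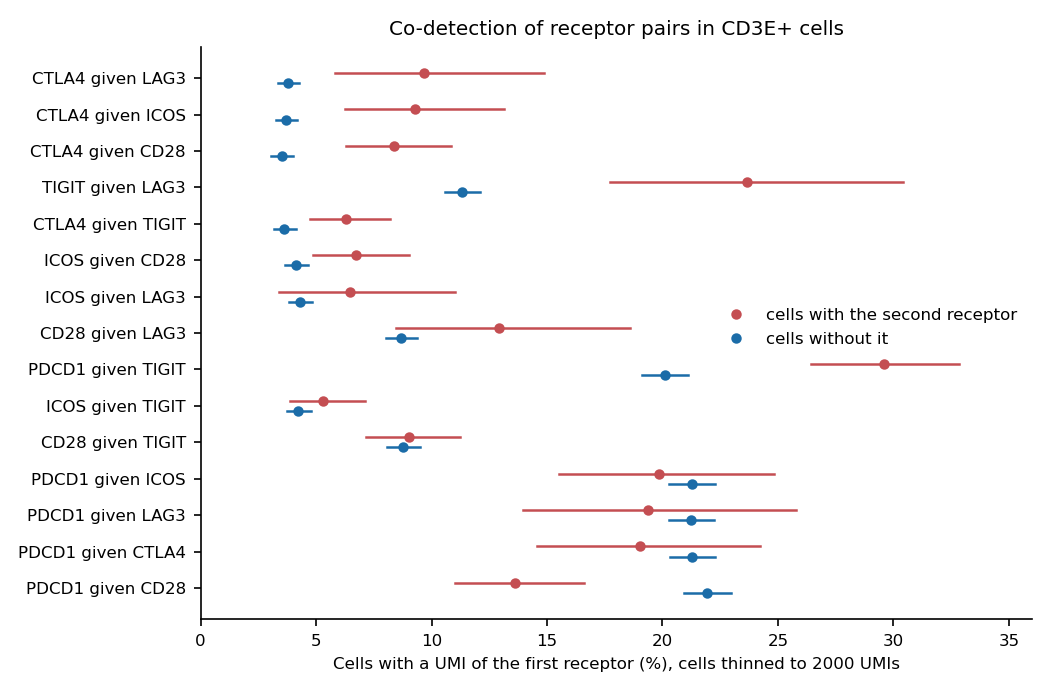
Share of CD3E+ cells, thinned to 2000 UMIs, with a UMI of the first receptor among cells with (red) and without (blue) the second, for the 15 pairs of 6 receptors, with exact 95% binomial intervals. The CTLA4 pairs with LAG3, ICOS, CD28 and TIGIT have separate intervals with red on the right, and PDCD1 given CD28 has red on the left, at 13.6% against 21.9%.

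Over all CD3E+ cells, PDCD1 behaved differently from CTLA4. It was found in 13.6% of CD28+ cells (11 to 16.6) and 21.9% of CD28- cells (20.9 to 23.0), the single pair of the 15 without HAVCR2 with separate intervals and a ratio below 1. With TIGIT the order was the reverse, with PDCD1 in 29.6% of TIGIT+ cells (26.4 to 32.9) and 20.1% of TIGIT- cells (19.1 to 21.1). Its shares with and without CTLA4, ICOS and LAG3 had overlapping intervals, with ratios of 0.89, 0.93 and 0.91. This did not hold within all groups. Among CCR7+ cells with fewer than 3 GZMB UMIs, PDCD1 was found in 14.9% of CTLA4+ (9.56 to 21.6) and 6.55% of CTLA4- cells (5.44 to 7.80). By LAG3 it was 16.7% (8.29 to 28.5) against 6.88% (5.77 to 8.13), and by ICOS the intervals overlapped. Among cells with none of the 7 and few GZMB UMIs, the intervals by CTLA4, ICOS and LAG3 all overlapped.

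The pooled pairs mix cells of different gates, and some directions changed within a group. Among CCR7 only cells PDCD1 was found in 11.9% of CD28+ (7.67 to 17.3) and 6.11% of CD28- cells (4.82 to 7.60), the opposite of the pooled order. Among cells with none of the 7 it was 13% (8.83 to 18.3) against 26.1% (24.4 to 27.7), but among those of them with fewer than 3 GZMB UMIs it was 12.6% against 14.0%, with overlapping intervals. Only 9 CX3CR1 only cells had CD28, and 1 of them had PDCD1. The PDCD1 and TIGIT pair was strongest among CCR7 only cells, with PDCD1 in 20.2% of TIGIT+ (13.4 to 28.5) and 5.67% of TIGIT- cells (4.47 to 7.08), and was not seen among CX3CR1 only cells, with 39.1% and 39.7%. It held among cells with none of the 7 and few GZMB UMIs, at 25% (18.6 to 32.2) against 12.5% (10.9 to 14.3). TIGIT itself was within its background in all 3 groups, and what part of its UMIs came from outside the cell was not tested.

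**Figure D5:**
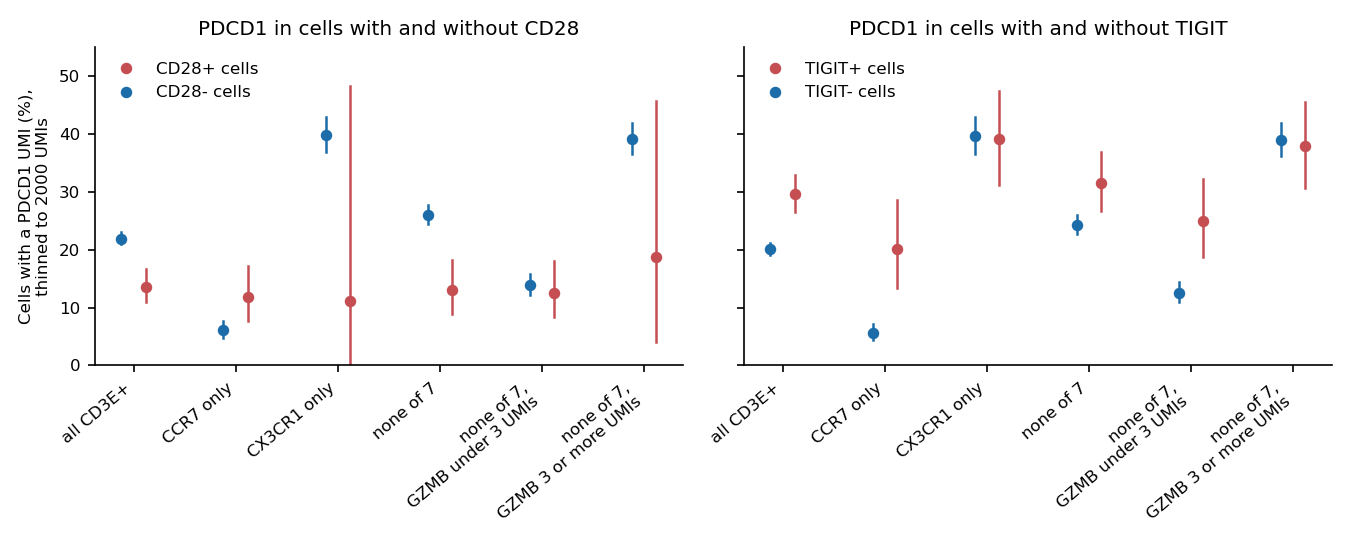
Share of cells with a PDCD1 UMI, thinned to 2000 UMIs, among cells with (red) and without (blue) CD28 on the left and TIGIT on the right, in all CD3E+ cells and within groups, with exact 95% binomial intervals. The order for CD28 turns from 13.6% against 21.9% in all cells to 11.9% against 6.11% in CCR7 only cells, and PDCD1 is at 20.2% against 5.67% by TIGIT in CCR7 only cells.

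The CTLA4 pairs did not all hold within groups either. CTLA4 with ICOS was at 17.5% (9.91 to 27.6) against 6.41% (5.15 to 7.87) among CCR7 only cells, but 2 of 102 ICOS+ cells against 2.31% among cells with none of the 7. CTLA4 with CD28 was at 5.58% (2.92 to 9.55) against 2.05% (1.56 to 2.65) among cells with none of the 7 and had overlapping intervals among CCR7 only cells. ICOS with CD28 was at 7.44% (4.31 to 11.8) against 3.09% in cells with none of the 7, and at 5.15% against 5.78% in CCR7 only cells. Among the cells with none of the 7 and few GZMB UMIs the intervals of both pairs overlapped, with CTLA4 at 5.53% (2.79 to 9.68) against 3.04% (2.22 to 4.07) and ICOS at 7.54% (4.28 to 12.1) against 4.01% (3.06 to 5.16).

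Cells with CD28, ICOS, CTLA4, TIGIT or LAG3 had higher medians of both surface tags than cells without, and they were also deeper. PDCD1+ cells were shallower, at 3481 against 3759 UMIs, and had a CD4 tag of 367 against 396. In ICOS+ cells the CD4 tag was 456 against 379 and the CD8 tag 403 against 338, at depths of 4473 and 3593.5. The median CD4 tag was 456 UMIs in CD28+ and 370 in CD28- cells, at median depths of 4446 and 3536 RNA UMIs. LAG3+ cells had a median CD8 tag of 448 against 338 and a CD4 tag of 461 against 383, at depths of 4195 and 3636, and the part of depth was not tested. CD8B, the beta chain of CD8, was at 29.2 CPM (22.0 to 38.0) in LAG3+ and 16.0 CPM in LAG3- cells, and at 26.8 CPM (23.0 to 31.0) in TIGIT+ and 13.9 CPM in TIGIT- cells. In PDCD1+ cells CD8B was lower, at 13 against 18.6 CPM. By tag class, PDCD1 was at 116 CPM in cells above both tag limits and 147 CPM in those above CD4 alone. The 186 cells above CD8 alone had 114 CPM of TIGIT (88.4 to 144), 28 CPM of CD28 and 4 UMIs of CTLA4. That TIGIT interval overlaps its background, so TIGIT is not read as above background there.

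The other genes of these pathways were taken from 3 lists. Of 12 ligands, 11 had a row and 5 had at least 50 UMIs, and none of the 5 passed 2-fold in any of the 7 gates. Between 0.589% (EOMES) and 3.94% (CXCL13) of all genes passed in a gate, so this is not read as a trait of the ligands. Of 18 other coreceptors, 15 were measured, and KLRG1, an inhibitory receptor of late effector cells, passed in 6 of 7 gates. It was at 101 CPM in CX3CR1+ and 38.6 CPM in CX3CR1- cells, and lower in CCR7+ (15.2 against 67.8 CPM), CCR9+ (10.2 against 53.0 CPM), CCR6+ (17.8 against 52.9 CPM), FOXP3+ (3 UMIs) and CXCL13+ cells (0 UMIs). TNFRSF4 (OX40), a costimulatory receptor of the TNF receptor family, was higher in CXCL13+ cells, at 71.0 against 22.1 CPM, and lower in CX3CR1+ cells, at 7.80 against 25.7 CPM.

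The CXCL13 gate, which also had the largest share of calls over all genes at 3.94%, had the most calls in these lists, with 3 coreceptors higher and 2 lower of 15 and 2 factors higher and 1 lower of 18. CD200, a ligand of inhibitory myeloid receptors that follicular helper cells carry, was at 71.0 against 4.23 CPM, TOX2, a factor of follicular helper differentiation, at 61.3 against 5.23 CPM, and BTLA, an inhibitory receptor, at 29.1 against 5.44 CPM on 9 UMIs. PRDM1 was lower, on 3 UMIs. The smallest 2 of the 8 differences, named after their values were seen, were those of NFATC1, a factor activated by T cell receptor signals, at 100.1 against 38.0 CPM, and of CD96, which binds CD155 as TIGIT does, at 19.4 against 52.6 CPM. In the FOXP3 gate CD40LG, the helper signal to B cells, was at 16.1 against 53.7 CPM and CD96 at 13.7 against 53.3 CPM. NR4A1, an early gene of T cell receptor signalling, was at 30.8 against 6.89 CPM in CCR7+ cells and 46.2 against 13.7 CPM in EOMES+ cells, and at 2 UMIs in FOXP3+ cells. PRDM1, the factor of effector differentiation, was at 18.4 against 51.8 CPM in CCR7+ cells. No listed factor passed in the CX3CR1, CCR9 or CCR6 gates.

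Over the 8 exclusive groups, the genes most like each receptor were found by Pearson's r of log2(CPM + 10) among 7633 genes with at least 200 UMIs. The points share 1 library and the small groups are noisy, so r is a description. Nearest to PDCD1 were SERTAD1 (0.987), NUDT11 (0.985) and HMGN1 (0.983), and nearest to CD28 were GPR183 (0.956), TMEM141 (0.953) and LTB (0.947). For CTLA4 they were ZFYVE27 (0.952), NPC2 (0.938) and SOCS3 (0.937), for ICOS TRAP1 (0.975), GOLGA4 (0.917) and RBIS (0.905), and for TIGIT ARHGAP9 (0.973), FBXO27 (0.964) and PRELID3B (0.957). Those of LAG3 were THRA (0.955), ENSMMUG00000062211 (0.945) and NR1D1 (0.944).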

How the data were processed

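The authors mapped the reads with Cell Ranger 3.1.0 and STAR 2.5.1b to Mmul_10, as the submitters' processing notes name them, and deposited unnormalized UMI counts for each feature in each barcode. Which gene annotation release was used is not given. The receptors and lists were chosen with earlier results of these data known. Barcodes passed with between 200 and 4000 genes and no more than 20% of UMIs from mitochondria, counted over 13 genes with names and 2 unnamed ones beside them. A table of gene names gave 675 further gene IDs a symbol. CPM are counts per 1000000 summed UMIs, with exact Poisson intervals. Shares have Clopper-Pearson intervals, and ratios have exact intervals from the binomial split of the counts, at 95%. Background cells were those without CD3 UMIs that had 3 or more from B cell genes. Their 90th percentile set the tag limits, 191 UMIs for CD4 and 330.5 for CD8. Scrublet's own threshold marked 0 of 7601 cells as doublets, so it did not work and no cell was removed. Named genes were the receptors, the gate genes, CD3E, the genes of 3 lists past 2-fold, up to 6 per gate, and the 3 most alike genes per receptor. The software was Python 3.11.15 and its packages scanpy 1.11.5, matplotlib 3.10.9, pandas 2.3.3, scipy 1.17.1 and numpy 2.4.6, and the computation was tested on simulated data. Other cell filters, tag classes, gate limits, depths, pseudocounts and means over cells were tried.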

Additional observations from a re-analysis of the deposited data

Results flagged for a closer look

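Receptor UMIs were also found in the 322 barcodes outside the cell filters, above the 3 counts that a count of 0 allows. They held 143 UMIs of PDCD1 (110.8 CPM), 95 of CD28 (73.6 CPM), 67 of TIGIT (51.9 CPM), 41 of ICOS (31.8 CPM), 29 of CTLA4 (22.5 CPM) and 13 of LAG3 (10.1 CPM). No HAVCR2 UMI was found in them. The intervals of PDCD1 (93.4 to 130.5 CPM), ICOS (22.8 to 43.1 CPM), CTLA4 (15.1 to 32.3 CPM) and LAG3 (5.36 to 17.2 CPM) held the levels of the CD3E+ cells, which were 129.5, 28, 21.1 and 15.4 CPM in this order. TIGIT was lower than the 68.5 CPM of the CD3E+ cells and CD28 was higher than their 53.1 CPM.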

How the results depend on the processing

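No paired analysis was possible because the data are 1 sample of 1 animal and the labels give no replicate numbers, and for the same reason no replicate could be left out. The 42 log2 ratios of 6 receptors in 7 gates were recomputed under 15 alternatives, 630 fits, of which 546 stayed within the counting error, 84 moved beyond it and 0 of the called ones changed sign. The number of receptors past 2-fold was less stable, since several ratios lie near the limit. For the CCR7 gate (1 receptor) it was 2 without cells with B cell genes, without the highest doublet scores, with thinned gates and with a pseudocount of 1, 3 with means over cells and 0 among cells with few GZMB UMIs. For the FOXP3 gate (2) it was 5 in cells above both tag limits, 4 with thinned gates or a pseudocount of 1, 1 with at least 2 FOXP3 UMIs and 0 with a pseudocount of 50. For the CXCL13 gate (5) it was 1 with a pseudocount of 50, 4 above both tag limits, without the highest doublet scores, against none of the 7 or with few GZMB UMIs, and 6 with any CD3 gene, thinned gates or a pseudocount of 1. For the EOMES gate (1) it was 0 with the 13 named mitochondrial genes, at most 10% mitochondrial UMIs, no filter, above both tag limits, a pseudocount of 50 or without the cell with most TIGIT UMIs, and 2 with few GZMB UMIs. For the CX3CR1 gate (2) it was 1 against none of the 7 or with a pseudocount of 50, and 4 with a pseudocount of 1. For the CCR9 gate (1) it was 0 with few GZMB UMIs. For the CCR6 gate (0) it was 1 without the highest doublet scores, with means over cells or a pseudocount of 1, and 2 against none of the 7. In cells above both tag limits, TIGIT in the EOMES gate was at 0.68 and PDCD1 in the FOXP3 gate at -0.83 on the log2 scale of CPM + 10, and PDCD1 in CX3CR1 only cells was at 0.81 against none of the 7.

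The share of cells with at least 1 receptor (61.6%) was 63.9% above both tag limits, 42.1% and 42.0% thinned to 2000 UMIs with either random seed and 25.3% at 1000 UMIs. That with at least 2 (21.8%) was 24.2% above both tag limits, 20.8% without the highest doublet scores, 8.85% at 2000 UMIs with either seed and 3.49% at 1000 UMIs. Among the pair ratios, PDCD1 with CD28 (0.62) was 1.94 in CCR7 only cells, 1.75 in CCR7+ cells with few GZMB UMIs and 1.2 in all cells with few GZMB UMIs. PDCD1 with TIGIT (1.47) was 0.99 in CX3CR1 only cells. CTLA4 with ICOS (2.51) was 0.85 in cells with none of the 7 and 0.81 in those with few GZMB UMIs, and ICOS with CD28 (1.63) was 0.89 in CCR7 only cells and 0.92 in CCR7+ cells with few GZMB UMIs. The GZMB limit, leaving out the cell with most UMIs and the pairs within groups were chosen after seeing the data. Except where the alternative leaves fewer cells or UMIs, the cause was not tested. Depth limits LAG3, ICOS and CTLA4 in the FOXP3 and CXCL13 gates, and HAVCR2 everywhere.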

Other observations

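Cycling cells, the 300 CD3E+ cells with a UMI of MKI67 or TOP2A, were compared with the other cells. PDCD1 was at 186 CPM against 126 CPM, with a log2 ratio of 0.56 (0.39 to 0.73). LAG3 was at 29.3 against 14.5 CPM, with a log2 ratio of 1.01 (0.56 to 1.44). TIGIT was at 105 CPM (90.1 to 121) against 66.3 CPM, with a log2 ratio of 0.66 (0.43 to 0.88), and the interval of the first level overlaps the background of TIGIT in B gene cells. CTLA4 and ICOS had intervals that include 0, and CD28 was at 54.5 against 53.0 CPM. None of the 6 receptors passed 2-fold on the scale of CPM + 10, where 0.908% of all genes did.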
